A study of Mus musculus with 20 samples.

Results

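The untreated arm of a time course of mouse cells labelled spleen was followed over its first 6 h. Libraries at 2, 3 and 6 h were set against those at 15 min, 30 min and 1 h. These 6 poly-A messenger RNA libraries, 3 a side, were chosen by treatment (None) and time alone, out of 20 libraries in the series. The other 14 are untreated libraries at 0 min and at 12, 24 and 48 h, and 10 libraries of cells given a cocktail of LPS (lipopolysaccharide of bacterial walls, sensed through TLR4), interleukin 4 (IL4) and transforming growth factor beta (TGFb) at the same 10 times. The design text gives 1 mouse per arm, so all 6 libraries come from 1 untreated animal, and the labels name no allele and no agent besides the cocktail. Strain, age, sex, medium and any cell purification are not given in the labels, which say only that RNA was taken from a tube of cells. Since each time has 1 library, the 3 times on a side stand in for replicates. Errors and p-values therefore measure the spread between times of 1 animal, not between animals.

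The labelled tissue was checked against markers of the cell types a spleen holds. All 12 B cell markers were detected, with a summed level of 2998 to 3104 CPM (counts scaled to library size) in the first hour and 2552 to 2738 at 2, 3 and 6 h, and Cd79a, a chain of the B cell receptor, ran from 262 to 311 CPM. Markers of other cells were not all at 0. The 9 plasma cell markers summed to 1041 to 1097 CPM early and 1037 to 1093 later, led by Igj (400.2 to 526 CPM), Irf4 (283 to 340) and Xbp1 (211 to 289), which B cells are also known to express. The 10 dendritic cell markers summed to 154 to 156 CPM early and 174 to 196 later, led by Cst3 (62.4 to 84.0) and Bst2 (41.5 to 52.1). The 12 markers of stroma and endothelium summed to 139 to 143 CPM early and 128 to 133 later, most of it Madcam1 (122 to 128), and the 8 platelet markers to 41.1 to 47.7 early and 18.4 to 30.9 later, led by Itgb3 (16.9 to 45.5). The 12 erythroid markers summed to 541 to 638 CPM early and 717 to 1153 later, nearly all of it Tfrc, the transferrin receptor of dividing cells too (539.9 to 1152). The 14 T cell markers summed to 59.5 to 63.1 CPM early and 58.1 to 62.0 later, mostly Cd5 (39.4 to 44.3), which some B cells carry, with Lck at 7.57 to 11.3 and Cd4 at 2.07 to 5.2.

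Macrophages and NK cells had some markers present and others at 0. The 18 macrophage and monocyte markers summed to 125 to 202 CPM early and 84.0 to 286 later, with Hmox1 at 42.7 to 234, Csf1r at 19.1 to 30.8, Cd68 at 16.2 to 21.9 and Emr1 at 2.48 to 7.84. The 10 NK cell markers summed to 14.0 to 15.4 CPM early and 9.76 to 14.1 later, most of it Prf1 (9.74 to 15.3), and the 12 neutrophil markers never passed 0.781. In all 6 libraries the T cell genes Cd2 and Bcl11b, the NK cell genes Klrk1, Klrd1, Gzma, Gzmb and Klra8, and the macrophage genes C1qa, C1qb, C1qc, Cd14, Lyz1 and Cd163 had 0 counts, and Cd3e had at most 14. Zeros are not safe everywhere in these tables: H2-K1 and H2-D1, class I genes that nearly all cells use, had at most 2 counts, so low values of H2 genes were not read. At 2-6 h the sums of the B cell, stroma and platelet lists lay below their first-hour range and those of the dendritic and erythroid lists above it, along with the changes below, and their part in them was not tested. In bulk RNA, fewer cells of a type and less RNA per cell cannot be told apart.

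Cells taken from a tissue and moved to a tube or dish are known to pass through a short burst of immediate early genes (the Fos, Egr and Nr4a families), whose transcripts and proteins are short lived. Other programmes follow. Heat shock factor 1 drives genes of chaperones when unfolded protein builds up. ATF4 drives genes of amino acid uptake and synthesis when amino acids are short or a kinase of eIF2 is active. SREBP factors drive sterol and fatty acid synthesis when membranes hold little cholesterol, and NRF2 drives genes against oxidants. These roles are background, and no protein or factor activity was measured here.

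The 6 libraries held 40720958 to 59048174 counts, so the floor of 3 counts lay between 0.0508 and 0.0737 CPM. Of 11597 genes tested (those with 1 CPM or more in 3 or more libraries), 4327 (37.3%) differed between 2-6 h and the first hour at an adjusted p under 0.05 (edgeR quasi-likelihood test), 2201 (19%) higher and 2126 (18.3%) lower at 2-6 h. At least a 2-fold change was seen in 211 of the higher (1.82% of genes tested) and 424 of the lower genes (3.66%). By level alone, 27.4% of genes tested were higher and 27.5% lower in all 3 later libraries than in any early one. With library totals as the only scaling the split was 1628 higher and 2689 lower, 37.7% higher against 50.9%, because that scaling moved the median log2 fold change of all genes to -0.07 from -0.0018. Each list count below is to be read beside these shares of all genes tested, 19% higher and 18.3% lower. Log2 fold changes below are later over early, with their SE and n = 3 libraries a side.

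Sequencing lanes were shared unevenly between the sides. The 15 min and 1 h libraries were run in lane 1, the 2 h library in lane 2, and the 30 min, 3 h and 6 h libraries in lane 3. With lane as an added term 1382 genes passed. Within lane 3, where 30 min stands against 3 and 6 h, 0 genes passed an adjusted p under 0.05 by the same test and 2580 had an unadjusted p under 0.05. The number of calls also moved with the libraries used: 1692 without 15 min, 1325 without 30 min, 2832 without 1 h, 4816 without 2 h, 1793 without 3 h and 5624 without 6 h. The 3 early libraries were close to each other, with 10 to 28 genes over 2-fold apart in a pair. Between 1 h and 2 h 202 genes were over 2-fold apart, between 2 h and 3 h 26, between 3 h and 6 h 246, and between 30 min and 6 h 1164.

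**Figure D1:**
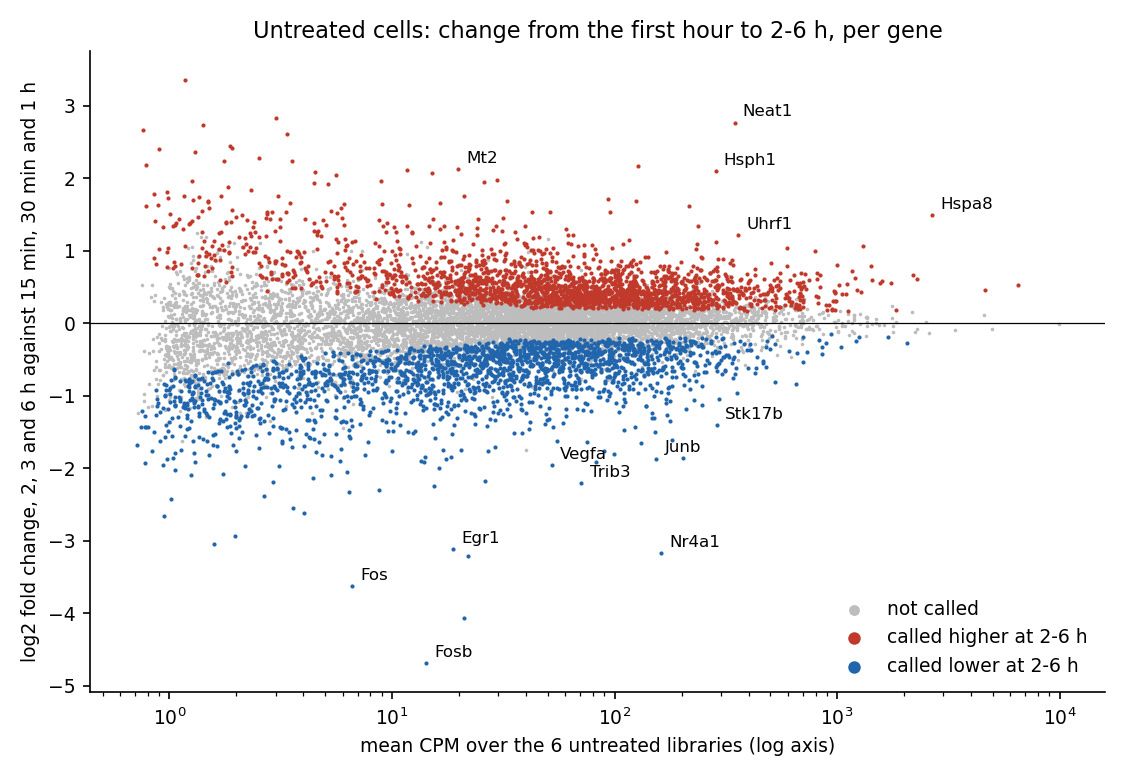
Log2 fold change of each of 11597 genes (2-6 h over the first hour, vertical axis) against its mean level (CPM, log axis), with genes past an adjusted p of 0.05 in colour. Both directions hold genes of low and of high level, and the furthest gene below is Fosb at -4.69 while Neat1 is the furthest named gene above at 2.77.

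The 635 genes with at least a 2-fold change took most of their median step between 1 h and 2 h. They were picked by the contrast of the first hour against 2-6 h, which favours a step at that border, so its place is no separate result. Most of the 635 were still beyond the early libraries at 48 h. From 1 h to 2 h the median step was 0.84 on the log2 scale for the higher and -0.77 for the lower genes, from 2 h to 3 h 0.28 and -0.35, and from 3 h to 6 h 0.07 and 0.03. Of the 211 higher genes, 19 had their highest later value at 2 h, 71 at 3 h and 121 at 6 h. Of the 424 lower genes, 34 were lowest at 2 h, 190 at 3 h and 200 at 6 h. The median of the higher genes, as log2 ratio to the early mean, was -0.09 (0 min), 0.11 (1 h), 0.93 at 2 h, 1.2 at 3 h and 1.27 at 6 h. It stood at 1.09, 0.93 and 0.66 in the libraries of 12, 24 and 48 h, which the test did not use. For the lower genes the medians were 0.13 at 0 min, -0.14 at 1 h, -0.90 at 2 h, -1.25 at 3 h, -1.19 at 6 h, -1.19 at 12 h, -1.25 at 24 h and -0.61 at 48 h. At 48 h 163 of the 211 were still above all 3 early libraries and 333 of the 424 still below them, while 17 and 27 had passed the early range the other way.

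**Figure D2:**
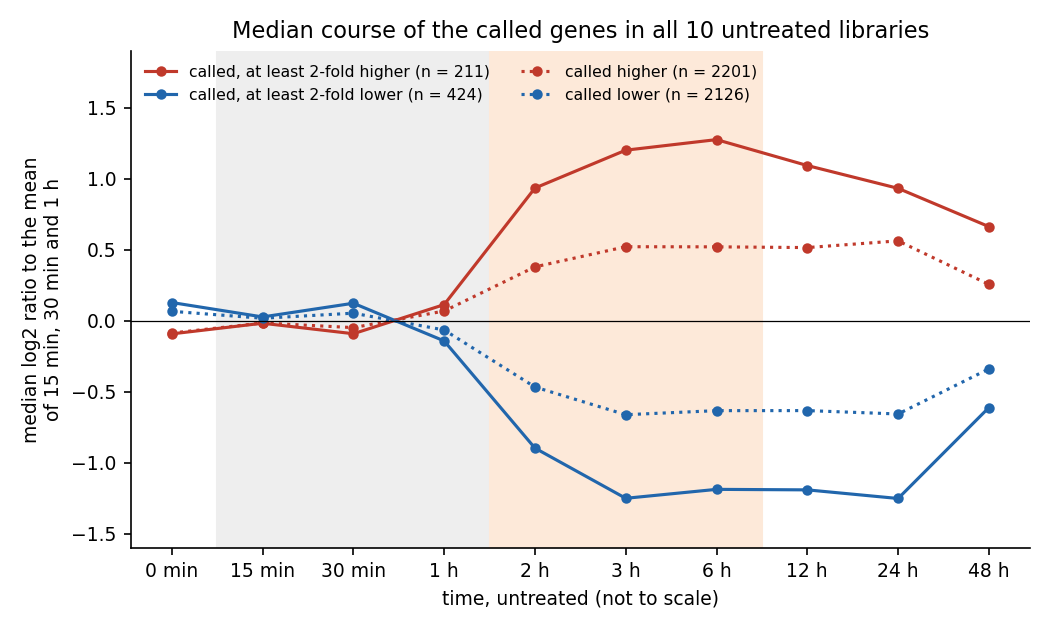
Median log2 ratio to the mean of the first hour (vertical axis) at each of the 10 untreated times (horizontal axis, not to scale) for the 211 genes called at least 2-fold higher and the 424 called at least 2-fold lower (solid lines) and for all 2201 and 2126 called (dotted lines). The step falls between 1 h and 3 h, a place favoured by the contrast that picked these genes. At 48 h the medians of the solid lines are 0.66 and -0.61.

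Most immediate early genes fell, and the furthest fall of any gene tested was in Fosb, of this list. Of 22 tested members of the list 14 fell and 2 rose, with a median log2 fold change of -0.73, beside 18.3% and 19% of all genes. Fosb, which pairs with Jun proteins as AP-1 (chromosome 7, 19302696 to 19310051, minus strand, GRCm38), had 37.4, 31.1 and 14.0 CPM in the first hour and 2.17, 0.723 and 0.185 CPM at 2, 3 and 6 h. It was 25.8-fold lower (log2 fold change -4.69 ± 0.72, adjusted p = 0.00561), already lower at 1 h than at 15 min and lower again at each later time. Fos, another AP-1 subunit, had 20, 12.6 and 3.92 CPM in the first hour and 1.25, 1.02 and 0.677 CPM at 2, 3 and 6 h, from 40.9 CPM at 0 min (log2 fold change -3.63 ± 0.60, adjusted p = 0.00639). Its level was going down before 2 h, and the 1 h value was closer to the 2 h value than to the 15 min value.

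The Nr4a orphan nuclear receptors were still at their first level at 30 min and then fell. Nr4a1 had 318, 345 and 209 CPM in the first hour and 52.7, 32.7 and 11.8 CPM at 2, 3 and 6 h (log2 fold change -3.17 ± 0.50, adjusted p = 0.00597), and Nr4a3 had 38.2, 48.1 and 32.5 CPM in the first hour and 4.13, 2.22 and 0.636 CPM at 2, 3 and 6 h (log2 fold change -4.07 ± 0.54, adjusted p = 0.00463). Egr1, a zinc finger factor, had 52.7, 35.1 and 13.1 CPM in the first hour and 4.2, 3.41 and 4.02 CPM at 2, 3 and 6 h (log2 fold change -3.12 ± 0.47, adjusted p = 0.00554). Junb, the most abundant AP-1 subunit of the list at 15 min, had 261, 274 and 188 CPM in the first hour and 72.4, 71.0 and 55.8 CPM at 2, 3 and 6 h (log2 fold change -1.87 ± 0.17, adjusted p = 0.00392). In these genes the lowest early library lay well above the highest later library. Fosl2 (-2.17), Apold1 (-3.21, no member of the list) and Klf6 (-0.59) also fell. Jun went the other way with 5.77, 4.18 and 3.05 CPM in the first hour and 18.3, 30.9 and 7.73 CPM at 2, 3 and 6 h (log2 fold change 2.12 ± 0.48, adjusted p = 0.0155), a peak at 3 h after which it was at 7.44 CPM at 12 h. Of the 14 members that fell, 12 were below the first hour at 12 h. At 24 h 12 were below it and 1 above it, and at 48 h all 14 were below it. The rise of Jun missed the threshold without 30 min (adjusted p = 0.0699), 1 h (0.0547) or 3 h (0.0509) and with lane as a term (0.159), and with lane so did the falls of Fos (0.0563) and Egr1 (0.0538). The count of 14 lower became 7 with lane as a term. Jun and Junb overlap exons of a gene on the other strand, and since the strand setting of the counting is not given in the sources used here, their counts are uncertain.

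Feedback genes of the same pathways fell with them. Of 9 tested MAP kinase feedback genes 5 fell and 0 rose, with a median log2 fold change of -0.89. Dusp6, a phosphatase of ERK, had 15.8, 14.4 and 13.0 CPM in the first hour and 7.55, 7.37 and 6.67 CPM at 2, 3 and 6 h (log2 fold change -1.01 ± 0.12, adjusted p = 0.00461). Dusp2, a nuclear MAP kinase phosphatase, had 213, 231 and 198 CPM in the first hour and 118, 87.1 and 54.6 CPM at 2, 3 and 6 h (log2 fold change -1.31 ± 0.25, adjusted p = 0.00876) and was lower at each later time. Among 12 regulators of messenger RNA decay 7 fell and 1 rose. Zc3h12d, a member of the Regnase family, had 175, 171 and 141 CPM in the first hour and 51.3, 40.3 and 83.8 CPM at 2, 3 and 6 h (log2 fold change -1.48 ± 0.25, adjusted p = 0.00701), and Zfp36, which binds AU-rich transcripts, had 23.0, 17.7 and 11.9 CPM in the first hour and 11.4, 8.47 and 7.45 CPM at 2, 3 and 6 h (log2 fold change -0.95 ± 0.26, adjusted p = 0.0272). The count of 5 lower became 3 with lane as a term. The count of 7 lower became 1 with lane as a term, 2 without 15 min, 30 min or 3 h and 4 without 1 h. Zfp36 missed the threshold without 15 min (adjusted p = 0.0921), 30 min (0.0897) or 3 h (0.0955) and with lane (0.105), as did Zc3h12d with lane (0.0739). Zfp36 overlaps exons on the other strand and its counts are uncertain.

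**Figure D3:**
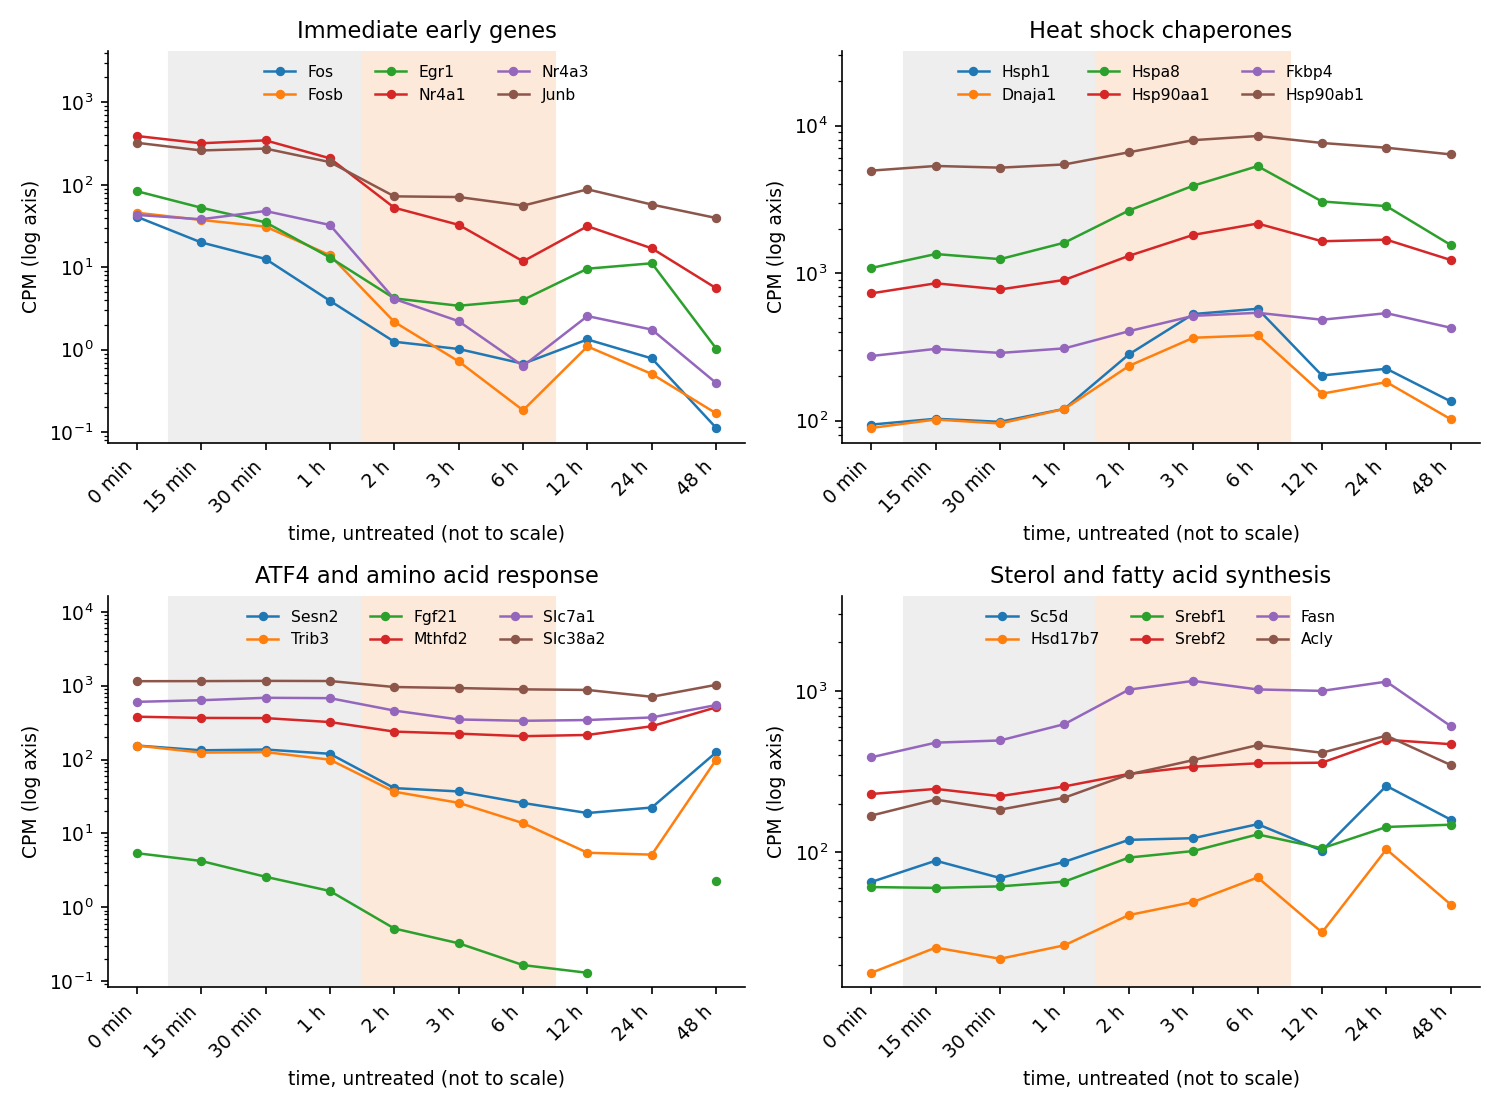
Level (CPM, log axis) of 24 genes at the 10 untreated times (horizontal axis, not to scale), in panels for immediate early genes, heat shock chaperones, ATF4 and amino acid genes, and sterol and fatty acid synthesis. The early (grey) and later (orange) libraries of the comparison are shaded, and Fgf21, listed at 0 at 24 h, has no point there. Immediate early and ATF4 genes go down between 1 h and 3 h, and the genes of the other panels go up.

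Heat shock chaperones rose as a group. Of 20 tested members 14 rose and 0 fell, with a median log2 fold change of 0.75. The summed list went from 10559 to 11672 CPM in the first hour to between 15279 and 23039 CPM at 2, 3 and 6 h. Hsph1, a partner that exchanges nucleotide on HSP70 (chromosome 5, 149614287 to 149636376, minus strand, GRCm38), had 103, 98.3 and 120.4 CPM in the first hour and 282, 529 and 574 CPM at 2, 3 and 6 h and was higher by 4.29 times (log2 fold change 2.10 ± 0.25, adjusted p = 0.00461). Hspa8, the constitutive HSP70, had 1348, 1245 and 1610.1 CPM in the first hour and 2657, 3916 and 5313 CPM at 2, 3 and 6 h (log2 fold change 1.5 ± 0.23, adjusted p = 0.00584). Its value rose at each later time and no early library reached the lowest later one.

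The cytosolic HSP90 genes and cochaperones of HSP70 and HSP90 rose too. Dnaja1, a J-domain protein that feeds clients to HSP70, had 102, 95.8 and 120.2 CPM in the first hour and 235, 365 and 379.5 CPM at 2, 3 and 6 h (log2 fold change 1.62 ± 0.19, adjusted p = 0.00461). Hsp90aa1, the inducible cytosolic HSP90, had 854, 776 and 900.4 CPM in the first hour and 1309.8, 1817 and 2169 CPM at 2, 3 and 6 h (log2 fold change 1.06 ± 0.17, adjusted p = 0.00602), and Hsp90ab1, its constitutive form, had 5328, 5188 and 5457 CPM in the first hour and 6597, 7971 and 8504 CPM at 2, 3 and 6 h (log2 fold change 0.53 ± 0.09, adjusted p = 0.00678). The rise was larger in Hsp90aa1 and the CPM were higher in Hsp90ab1, values that are not divided by transcript length. Fkbp4, an HSP90 cochaperone, had a log2 fold change of 0.68 ± 0.11. Hspe1 and Hspd1, the mitochondrial chaperonin pair, had 0.70 and 0.80. At 48 h 11 of the 14 were still above the first hour. The count of 14 higher became 8 without 30 min. Hspd1 missed the threshold without 30 min (adjusted p = 0.0589). Dnaja1 overlaps exons on the other strand, and Hspe1 and Hspd1 overlap each other's exons on opposite strands. The counts of these genes are uncertain.

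Promoters of this list were read from RefSeq (GRCm38.p6, 250 bases before to 50 after the gene's start), which held 16 of the 20. The heat shock element, searched as GAANNTTC or TTCNNGAA (each reads the same on both strands, and neighbouring matches may overlap), stood in 11 of the 16 (68.8%). Over all 27025 gene symbols with promoters of the same length, 17.0% held it. The list was written as heat shock genes, so an excess of this element comes with that choice and is no result of these data. Among the 11 members with a promoter that rose, 7 held the element, a share no higher than in all 16. The stretch around it, with the element in capitals, is shown for Fkbp4 and Hspb1, where it lies before the RefSeq start and touches no GENCODE exon of a protein-coding gene. Hspb1, a small heat shock protein named for its element after its values were seen, had 11.5, 10.6 and 12.9 CPM in the first hour and 16.6, 29.1 and 32.6 CPM at 2, 3 and 6 h (log2 fold change 1.16 ± 0.24, adjusted p = 0.0116), and missed the threshold without 15 min (adjusted p = 0.0503), 30 min (0.0596) or 3 h (0.0501).
Fkbp4: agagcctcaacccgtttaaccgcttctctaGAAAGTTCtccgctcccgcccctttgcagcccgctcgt
Hspb1: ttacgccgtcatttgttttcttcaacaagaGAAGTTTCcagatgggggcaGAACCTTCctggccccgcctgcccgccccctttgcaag
The stretches lie at chr6:128438770-128438837 (minus strand) and chr5:135887772-135887859 (plus strand), and hold 1 match and 2 matches. A match is a run of letters, and binding was not measured.

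The unfolded protein response list split. Of 25 tested members 15 rose, above the 19% of all genes, and 6 fell, near the 18.3% of all genes. Genes of folding in the endoplasmic reticulum were among those that rose. Creld2, a disulfide isomerase partner, had 83.8, 78.7 and 89.6 CPM in the first hour and 134, 166 and 156 CPM at 2, 3 and 6 h (log2 fold change 0.85 ± 0.10, adjusted p = 0.00461), and Dnajb11, a cochaperone of BiP, had 121, 113 and 132 CPM in the first hour and 183, 219.9 and 233 CPM at 2, 3 and 6 h (log2 fold change 0.79 ± 0.11, adjusted p = 0.00472). Ern1, which encodes the sensor IRE1, had 19.5, 21.1 and 19.9 CPM in the first hour and 36.6, 42.0 and 33.8 CPM at 2, 3 and 6 h (log2 fold change 0.89 ± 0.10, adjusted p = 0.00461). Ppp1r15a, the GADD34 phosphatase subunit that restores translation and a known target of ATF4, had 67.2, 69.3 and 44.6 CPM in the first hour and 24.1, 22.3 and 19.7 CPM at 2, 3 and 6 h (log2 fold change -1.46 ± 0.18, adjusted p = 0.00461). Herpud1, of endoplasmic reticulum degradation, had 298, 307 and 265 CPM in the first hour and 143, 142 and 99.8 CPM at 2, 3 and 6 h (log2 fold change -1.18 ± 0.14, adjusted p = 0.00461), with every later library below every early one. The count of 6 lower became 3 without 15 min, 30 min, 3 h or in the fit of 8 groups over 20 libraries. Ppp1r15a overlaps exons on the other strand and its counts are uncertain.

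Genes of the ATF4 and amino acid response fell. Of 26 tested members 14 fell and 0 rose, with a median log2 fold change of -0.42. Trib3, a pseudokinase that feeds back on ATF4 (chromosome 2, 152337422 to 152344032, minus strand, GRCm38), had 124, 126 and 99.6 CPM in the first hour and 36.6, 25.9 and 13.7 CPM at 2, 3 and 6 h and was 4.60-fold lower (log2 fold change -2.20 ± 0.32, adjusted p = 0.00521). Sesn2, a sensor of leucine upstream of mTORC1, had 133, 137 and 119.7 CPM in the first hour and 41.0, 37 and 25.8 CPM at 2, 3 and 6 h (log2 fold change -1.91 ± 0.17, adjusted p = 0.00392). Among the untreated libraries both were highest at 0 min, at 155 and 155 CPM, and from 30 min to 6 h each value was lower than the one before.

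The fall reached transport and synthesis of amino acids. Slc7a1, a transporter of cationic amino acids, had 636, 687 and 679 CPM in the first hour and 461, 349 and 335 CPM at 2, 3 and 6 h (log2 fold change -0.81 ± 0.12, adjusted p = 0.00546), and Mthfd2, of mitochondrial folate-linked carbon metabolism, had 366, 364 and 322 CPM in the first hour and 239, 224 and 207 CPM at 2, 3 and 6 h (log2 fold change -0.66 ± 0.08, adjusted p = 0.00461). Fgf21, a hormone gene at low level here, had 4.23, 2.58 and 1.66 CPM in the first hour and 0.514, 0.324 and 0.164 CPM at 2, 3 and 6 h (log2 fold change -3.05 ± 0.49, adjusted p = 0.00597). Slc38a2, a transporter of neutral amino acids, had a log2 fold change of -0.33 ± 0.05 and missed the threshold with lane as a term (adjusted p = 0.0535). Among 19 cytosolic aminoacyl-tRNA synthetases 7 fell and 2 rose: Aars had 336, 324 and 289 CPM in the first hour and 220.0, 221 and 208 CPM at 2, 3 and 6 h (log2 fold change -0.55 ± 0.08, adjusted p = 0.0048), Iars had a log2 fold change of -0.54 and Cars of -0.65. The count of 14 lower became 2 in the fit of 8 groups over 20 libraries, 7 without 15 min, 30 min or with lane as a term, 8 without 1 h and 9 without 3 h. The count of 7 lower became 0 in the fit of 8 groups over 20 libraries, 1 without 30 min, 3 without 15 min, 3 h or with lane as a term, 11 with library totals only and 12 without 6 h. Without 30 min Iars (adjusted p = 0.0512) and Cars (0.0549) missed the threshold. Aars and Cars overlap exons on the other strand and their counts are uncertain.

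Some of these genes were back at or above first-hour levels at 48 h, in libraries the test did not use. Trib3 had 5.46, 5.15 and 99.8 CPM at 12, 24 and 48 h, Sesn2 18.9, 22.4 and 125 CPM at 12, 24 and 48 h and Mthfd2 215, 283 and 510.2 CPM at 12, 24 and 48 h. At 24 h all 14 of the ATF4 list that fell were still below the first hour, and at 48 h 6 were below it and 5 above it. All 7 synthetases that fell were below the first hour at 24 h and above it at 48 h. Each late time is 1 library, so this has no replicate check.

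The composite element of C/EBP and ATF factors, searched as TGATGNAA on both strands, stood in 6 of 23 promoters of the list (26.1%). It stood in 4.51% of the 27025 gene symbols and in 2.88% of genes tested that have a promoter. The list was written as ATF4 genes, so an excess of this element can come with that choice and is no result of these data. In the list of NF-kB targets and inhibitors it stood in 5 of 23 promoters (21.7%), and in the heat shock and immediate early lists in 0. Among the 14 members that fell and have a promoter, 5 held the element. It is shown in capitals for 3 of those, in stretches before the RefSeq start that touch no GENCODE exon of a protein-coding gene, of which Chac1 and Pycr1 were picked for the element after their values were seen. Their log2 fold changes were -1.76 and -0.38, and that of Fgf21 is given above. Chac1, which cleaves glutathione, missed the threshold without 15 min (adjusted p = 0.0816), 30 min (0.0851) or 2 h (0.0529) and with lane (0.144). Pycr1, of proline synthesis, missed it without 15 min (0.108), 30 min (0.146), 1 h (0.104) or 3 h (0.0786) and with lane (0.133).
Fgf21: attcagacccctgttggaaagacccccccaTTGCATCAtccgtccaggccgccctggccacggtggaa
Chac1: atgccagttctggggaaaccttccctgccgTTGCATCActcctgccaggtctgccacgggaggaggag
Pycr1: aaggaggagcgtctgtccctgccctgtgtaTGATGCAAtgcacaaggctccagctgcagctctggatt
The stretches lie at chr7:45615592-45615659 (minus strand), chr2:119351019-119351086 (plus strand) and chr11:120643814-120643881 (minus strand). In Fgf21 and Chac1 the element reads on the strand opposite to the gene.

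Sterol and fatty acid synthesis rose. Of 28 tested genes of cholesterol synthesis and uptake 15 rose and 1 fell, with a median log2 fold change of 0.77. Hsd17b7, of sterol demethylation, had 25.7, 21.9 and 26.6 CPM in the first hour and 40.9, 49.3 and 70.0 CPM at 2, 3 and 6 h (log2 fold change 1.10 ± 0.20, adjusted p = 0.00747), and Sc5d, a sterol desaturase, had a log2 fold change of 0.67 ± 0.13. Srebf1 and Srebf2, which encode the SREBP factors, had log2 fold changes of 0.78 ± 0.13 and 0.46 ± 0.09. Insig2, which retains SREBP in the endoplasmic reticulum, was the member that fell, with 31.4, 32.2 and 28.3 CPM in the first hour and 19.9, 17.9 and 22.5 CPM at 2, 3 and 6 h (log2 fold change -0.61 ± 0.11, adjusted p = 0.00804).

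Of 10 fatty acid synthesis genes 8 rose and 1 fell. Fasn, the fatty acid synthase, had 479, 494 and 623 CPM in the first hour and 1019, 1155 and 1022 CPM at 2, 3 and 6 h (log2 fold change 1.00 ± 0.11, adjusted p = 0.00461), Acly, which makes cytosolic acetyl-CoA, had 213, 184 and 218 CPM in the first hour and 304, 373 and 462 CPM at 2, 3 and 6 h (log2 fold change 0.88 ± 0.15, adjusted p = 0.00688), and Scd2, a desaturase, had 581, 488 and 592 CPM in the first hour and 794, 851 and 1019 CPM at 2, 3 and 6 h (log2 fold change 0.68 ± 0.11, adjusted p = 0.00672). In Fasn the step came by 2 h, whereas Acly went up through 6 h. Me1, the cytosolic malic enzyme that makes NADPH and is also on the NRF2 list, had a log2 fold change of 1.51 ± 0.25. All 15 sterol genes that rose were still above the first hour at 24 h and at 48 h. The count of 15 higher became 6 without 30 min, 7 without 15 min and 8 in the fit of 8 groups over 20 libraries. The count of 8 higher became 5 without 15 min, 30 min, 3 h or with lane as a term. Insig2 (adjusted p = 0.0739) and Me1 (0.0676) missed the threshold with lane as a term. Srebf1 and Me1 overlap exons on the other strand and their counts are uncertain.

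Genes against oxidative stress (the NRF2 list) rose. Of 16 tested members 12 rose and 1 fell. Txnrd1, a thioredoxin reductase, had 311, 361 and 491 CPM in the first hour and 834, 929 and 633 CPM at 2, 3 and 6 h (log2 fold change 1.04 ± 0.19, adjusted p = 0.00865), and Gclc, the catalytic subunit of glutathione synthesis, had 127, 172 and 239.7 CPM in the first hour and 465, 463 and 246 CPM at 2, 3 and 6 h (log2 fold change 1.12 ± 0.30, adjusted p = 0.0248). Both had begun to go up by 1 h, peaked at 2 or 3 h and were lower again at 6 h. Nqo1, a quinone reductase, had 1.44, 2.39 and 2.72 CPM in the first hour and 6.56, 8.20 and 12.3 CPM at 2, 3 and 6 h (log2 fold change 2.05 ± 0.32, adjusted p = 0.00563), and Gsr, the glutathione reductase, had 21.2, 24.1 and 37.8 CPM in the first hour and 59.5, 72.6 and 59.2 CPM at 2, 3 and 6 h (log2 fold change 1.2 ± 0.21, adjusted p = 0.00773). Osgin1 was the member that fell, with 19.2, 34.8 and 22.3 CPM in the first hour and 8.13, 5.83 and 2.13 CPM at 2, 3 and 6 h (log2 fold change -2.24 ± 0.45, adjusted p = 0.0107).

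The list of metallothionein and zinc genes did not rise as a group. Of 4 tested members 1 rose and 1 fell, with a median log2 fold change of -0.45. Its summed level was 266 to 286 CPM early and 178 to 245 later. Mt2, a metallothionein that binds zinc, had 3.59, 5.79 and 12.6 CPM in the first hour and 27.3, 36.8 and 32.3 CPM at 2, 3 and 6 h (log2 fold change 2.13 ± 0.41, adjusted p = 0.00953) and was down to 2.40 CPM at 24 h, and Fth1, the ferritin heavy chain, had a log2 fold change of 0.40 ± 0.08. The macrophage marker list, whose genes C1qa, C1qb, C1qc and Cd14 were at 0, holds Hmox1, an oxidative stress gene, and had a summed level of 125 to 202 CPM early and 84.0 to 286 later. Its part in this group was not tested. At 48 h 5 of the 12 NRF2 list genes were still above the first hour and 3 were below it. The count of 12 higher became 0 with lane as a term, 4 without 30 min, 5 without 15 min and 6 without 3 h. With lane the adjusted p was 0.0947 for Txnrd1, 0.215 for Gclc, 0.0559 for Nqo1, 0.0646 for Gsr, 0.0828 for Mt2 and 0.0742 for Fth1, with log2 fold changes of 1.11, 1.03, 2.10, 1.44, 2.57 and 0.47. Gclc also missed the threshold without 15 min (0.0816), 30 min (0.095) or 3 h (0.0891), and Mt2 (0.0526) and Fth1 (0.0517) without 30 min. Mt2 overlaps exons on the other strand and its counts are uncertain.

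Genes of ribosome and proteasome assembly rose, each by less than 2-fold. Of 40 ribosome biogenesis genes 22 rose and 0 fell. Utp20, of the small subunit processome, had 150.3, 160.0 and 197 CPM in the first hour and 288, 323 and 349 CPM at 2, 3 and 6 h (log2 fold change 0.92 ± 0.12, adjusted p = 0.00463), Polr1a, the large subunit of RNA polymerase I, had a log2 fold change of 0.54 ± 0.07, Mybbp1a, a nucleolar partner of Myb, was at 0.54 ± 0.08, and Ncl, the nucleolar protein nucleolin, had 3756, 3704 and 4153 CPM in the first hour and 4826, 5408 and 5805 CPM at 2, 3 and 6 h (log2 fold change 0.46 ± 0.08, adjusted p = 0.00672). Of 33 proteasome subunits 21 rose and 0 fell, among them Psmc4, an ATPase of the base, at 0.79 ± 0.13, and Psmd7, of the lid, at 0.56 ± 0.09. The cytosolic ribosomal proteins, in contrast, had 2 of 43 higher and 5 lower, and 13 lower with library totals only. The count of 22 higher became 7 without 30 min or in the fit of 8 groups over 20 libraries, 9 without 15 min or with lane as a term and 11 without 3 h. The count of 21 higher became 4 without 30 min, 6 without 15 min, 8 without 3 h, 11 with lane as a term and 13 without 1 h. Polr1a and Mybbp1a overlap exons on the other strand and their counts are uncertain.

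Glycolysis and cytoskeleton genes also rose. Of 19 glycolysis genes 12 rose and 3 fell. Pkm, pyruvate kinase, had 960.3, 897 and 987 CPM in the first hour and 1130.0, 1276 and 1357 CPM at 2, 3 and 6 h (log2 fold change 0.40 ± 0.08, adjusted p = 0.0101), and Slc2a3, the glucose transporter GLUT3, fell with 104, 107 and 98.8 CPM in the first hour and 64.7, 50.4 and 51.1 CPM at 2, 3 and 6 h (log2 fold change -0.90 ± 0.11, adjusted p = 0.00461). Of 19 adhesion and cytoskeleton genes 14 rose and 1 fell. Actb, beta actin, had 1626, 1561 and 1864 CPM in the first hour and 2450.2, 2981 and 2614 CPM at 2, 3 and 6 h (log2 fold change 0.67 ± 0.09, adjusted p = 0.0048), Actg1, gamma actin, had 200.3, 201 and 244 CPM in the first hour and 377, 457 and 361 CPM at 2, 3 and 6 h (log2 fold change 0.89 ± 0.12, adjusted p = 0.00465), and Cnn2, a calponin, had 16.7, 16.4 and 17.4 CPM in the first hour and 28.9, 39.8 and 33.3 CPM at 2, 3 and 6 h (log2 fold change 1.01 ± 0.13, adjusted p = 0.00461). Vim, the intermediate filament vimentin, was low but rose from 1.72, 1.37 and 3.36 to 6.37, 6.80 and 11.4 CPM (log2 fold change 1.92 ± 0.38, adjusted p = 0.00995). The count of 12 higher became 0 without 30 min, 1 without 15 min, 4 without 3 h, 6 with lane as a term and 7 without 1 h. Without 30 min Pkm missed the threshold (adjusted p = 0.0562).

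DNA replication genes rose and most genes of mitosis did not pass. Of 31 replication and S phase genes 21 rose and 0 fell. Pcna, the sliding clamp, had 228, 228 and 254 CPM in the first hour and 364, 449 and 456 CPM at 2, 3 and 6 h (log2 fold change 0.83 ± 0.10, adjusted p = 0.00461), and Mcm7, a subunit of the replicative helicase, had 160.5, 155 and 179.7 CPM in the first hour and 256, 309 and 291 CPM at 2, 3 and 6 h (log2 fold change 0.79 ± 0.09, adjusted p = 0.00461). Mcm2, Mcm5 and Gins3, of the same helicase complex, had log2 fold changes of 0.66 ± 0.09, 0.67 ± 0.10 and 0.80 ± 0.12. Uhrf1, which keeps DNA methylation at replication forks, had 207, 198 and 243 CPM in the first hour and 459, 578 and 476 CPM at 2, 3 and 6 h (log2 fold change 1.22 ± 0.12, adjusted p = 0.004) and is no member of the list.

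Of 20 mitosis and spindle genes 2 rose, 0 fell and 18 did not pass. The 2 were Cdk1, the mitotic kinase, with 89.4, 80.7 and 89.3 CPM in the first hour and 102, 115 and 160.0 CPM at 2, 3 and 6 h (log2 fold change 0.54 ± 0.16, adjusted p = 0.0376), and Birc5, the passenger protein survivin, at 0.46 ± 0.14. Top2a, topoisomerase II alpha, had 620.5, 546 and 571 CPM in the first hour and 548, 609 and 1035 CPM at 2, 3 and 6 h (log2 fold change 0.33 ± 0.22, adjusted p = 0.275): only the 6 h library stood above the early range. Of this list 0 passed as higher without 15 min, 30 min, 1 h or 3 h or with lane as a term, and without 6 h 3 were higher and 10 lower. The count of 21 higher became 8 without 30 min, 9 with lane as a term and 12 without 15 min or 3 h. Cdk1 missed the threshold without 15 min (adjusted p = 0.0969), 30 min (0.137), 1 h (0.088) or 3 h (0.0745) and with lane (0.0768), and Birc5 without the same libraries (0.108, 0.133, 0.113 and 0.0769) and with lane (0.115). Mcm7 overlaps exons on the other strand and its counts are uncertain.

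Genes of resting lymphocytes fell. Of 18 tested FoxO1 and KLF2 targets 9 fell and 1 rose. Foxo1 itself, a factor that keeps lymphocytes quiescent, had 148, 154 and 150.2 CPM in the first hour and 92.3, 75.7 and 80.2 CPM at 2, 3 and 6 h (log2 fold change -0.87 ± 0.09, adjusted p = 0.00438), and Foxo3 had 92.0, 85.3 and 76.7 CPM in the first hour and 45.6, 44.5 and 51.0 CPM at 2, 3 and 6 h (log2 fold change -0.85 ± 0.10, adjusted p = 0.00461). Il7r, the interleukin 7 receptor and a FoxO1 target, had 9.42, 10.5 and 9.13 CPM in the first hour and 4.26, 2.29 and 3.08 CPM at 2, 3 and 6 h (log2 fold change -1.59 ± 0.22, adjusted p = 0.00487), and Trib1 had a log2 fold change of -1.27 ± 0.11. Txnip, an arrestin that holds back glucose uptake, was the member that rose, with 22.1, 22.5 and 21.9 CPM in the first hour and 50.9, 69.0 and 50.1 CPM at 2, 3 and 6 h (log2 fold change 1.35 ± 0.13, adjusted p = 0.00435). Arrdc3, a related arrestin, rose too, with 14.4, 10.5 and 10.8 CPM in the first hour and 29.0, 55.1 and 58.0 CPM at 2, 3 and 6 h (log2 fold change 1.98 ± 0.27, adjusted p = 0.00476). The count of 9 lower became 5 with lane as a term or in the fit of 8 groups over 20 libraries. Foxo1 and Txnip overlap exons on the other strand and their counts are uncertain.

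The Bcl-2 family, which holds protectors from and inducers of apoptosis, was mixed. Of 14 genes 4 fell and 3 rose, near the 18.3% and 19% of all genes, with a list median of -0.03. Mcl1, which protects from apoptosis, had 803, 878 and 836 CPM in the first hour and 581, 442 and 397 CPM at 2, 3 and 6 h (log2 fold change -0.83 ± 0.13, adjusted p = 0.00609), and Bcl2, another protector, had 93.4, 91.7 and 78.4 CPM in the first hour and 51.2, 41.2 and 48.8 CPM at 2, 3 and 6 h (log2 fold change -0.90 ± 0.11, adjusted p = 0.00461). Bcl2l11, which encodes the death inducer BIM, had 223, 238 and 236 CPM in the first hour and 155, 137 and 93.1 CPM at 2, 3 and 6 h (log2 fold change -0.86 ± 0.17, adjusted p = 0.0101). Bcl2l1, which encodes the protector BCL-XL, rose with 32.6, 28.4 and 27.9 CPM in the first hour and 43.5, 60.3 and 54.8 CPM at 2, 3 and 6 h (log2 fold change 0.83 ± 0.13, adjusted p = 0.0061). The count of 3 higher became 1 without 30 min. Bcl2 overlaps exons on the other strand and its counts are uncertain.

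Of 26 tested p53 targets 15 fell and 3 rose. Plk2, a polo-like kinase, had 308, 379.8 and 271 CPM in the first hour and 114, 98.7 and 52.0 CPM at 2, 3 and 6 h (log2 fold change -1.86 ± 0.28, adjusted p = 0.00554). Rrm2b, a ribonucleotide reductase subunit, had 38.1, 34.5 and 29.5 CPM in the first hour and 13.1, 10.2 and 15.7 CPM at 2, 3 and 6 h (log2 fold change -1.39 ± 0.17, adjusted p = 0.00461), and Fas, the death receptor, had 22.8, 23.5 and 21.1 CPM in the first hour and 12.7, 9.42 and 10.1 CPM at 2, 3 and 6 h (log2 fold change -1.06 ± 0.14, adjusted p = 0.00461). Aen, a nuclease, was among the 3 that rose, at 0.66 ± 0.10. Sesn2, described above, is also on this list. The count of 15 lower became 7 with lane as a term, 8 in the fit of 8 groups over 20 libraries and 9 without 15 min, 30 min or 3 h. The count of 3 higher became 1 without 30 min, 5 by DESeq2 and 6 without 2 h. Rrm2b overlaps exons on the other strand and its counts are uncertain.

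Of 17 circadian clock genes 9 fell and 1 rose. Per1 and Per2, the period genes of the negative limb, had 87.5, 94.1 and 70.1 CPM in the first hour and 28.5, 34.0 and 49.3 CPM at 2, 3 and 6 h (log2 fold change -1.18 ± 0.21, adjusted p = 0.00766) and 38.0, 39.1 and 37 CPM in the first hour and 19.1, 21.6 and 24.0 CPM at 2, 3 and 6 h (log2 fold change -0.82 ± 0.10, adjusted p = 0.00461). Rora, an activator of the loop, had 9.34, 7.68 and 3.80 CPM in the first hour and 0.993, 1.27 and 1.15 CPM at 2, 3 and 6 h (log2 fold change -2.62 ± 0.35, adjusted p = 0.00463), with its 1 h value between the others. Bhlhe40, a repressor that hypoxia also raises, had 373, 433 and 391 CPM in the first hour and 238, 198 and 144 CPM at 2, 3 and 6 h (log2 fold change -1.05 ± 0.17, adjusted p = 0.00624). Cry1, a repressor of the negative limb, was the gene that rose, at 0.50 ± 0.09. The count of 9 lower became 5 without 30 min. Cry1 missed the threshold without 30 min (adjusted p = 0.0517). Rora and Bhlhe40 overlap exons on the other strand and their counts are uncertain.

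Among immune genes, the list of NF-kB targets and inhibitors was mixed, with 10 of 31 higher and 8 lower, beside 19% and 18.3% of all genes. Tnfaip3, which encodes the inhibitor A20, had 58.3, 42.2 and 52.5 CPM in the first hour and 90.7, 116 and 117 CPM at 2, 3 and 6 h (log2 fold change 1.08 ± 0.15, adjusted p = 0.00476), Nfkb1, the p105 precursor, had a log2 fold change of 0.46 ± 0.08, and Birc2, a ubiquitin ligase of the pathway, fell with 165, 170.0 and 128 CPM in the first hour and 89.9, 79.4 and 92.6 CPM at 2, 3 and 6 h (log2 fold change -0.83 ± 0.12, adjusted p = 0.00542). The chemokine genes Ccl3 and Ccl4 fell, with 9.95, 8.61 and 6.82 CPM in the first hour and 2.60, 2.57 and 4.72 CPM at 2, 3 and 6 h (log2 fold change -1.36 ± 0.28, adjusted p = 0.0107) and a log2 fold change of -1.37 ± 0.21. Of 19 Toll-like receptor and LPS sensing genes 8 fell and 4 rose, beside 18.3% and 19% of all genes. The share that rose was thus near that of all genes. Tlr4, the LPS receptor, had 22.6, 23.7 and 21.3 CPM in the first hour and 10.8, 10.0 and 10.8 CPM at 2, 3 and 6 h (log2 fold change -1.10 ± 0.10, adjusted p = 0.00392), while Ly86, the MD-1 partner of RP105, had 155, 135 and 145 CPM in the first hour and 201, 218 and 242 CPM at 2, 3 and 6 h (log2 fold change 0.60 ± 0.09, adjusted p = 0.00563) and the adaptor Myd88 was at 0.54 ± 0.09. Tlr6, a partner of TLR2, was at -1.09 ± 0.18. The count of 10 higher became 1 with lane as a term, 2 without 30 min, 3 without 3 h, 4 without 15 min or in the fit of 8 groups over 20 libraries and 5 without 1 h. The count of 8 lower became 3 with lane as a term, 4 without 15 min or 30 min and 5 without 3 h or in the fit of 8 groups over 20 libraries. The count of 4 higher became 2 without 15 min, 30 min, 3 h, with lane as a term or in the fit of 8 groups over 20 libraries. The count of 8 lower became 3 with lane as a term and 5 without 15 min, 30 min or 3 h. With lane as a term Nfkb1 (adjusted p = 0.0611), Ccl3 (0.108) and Tlr6 (0.0506) missed the threshold. Myd88 overlaps exons on the other strand and its counts are uncertain.

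Of 21 genes of class switching, the change of antibody isotype, 8 rose and 2 fell, beside 19% and 18.3% of all genes. Apex1, an abasic site endonuclease, was among those that rose, at 0.65 ± 0.12. The count of 8 higher became 2 without 15 min, 30 min, 3 h or with lane as a term and 4 without 1 h or with library totals only. Apex1 overlaps exons on the other strand and its counts are uncertain.

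Some genes of B cell identity fell. Of 12 B cell markers 5 fell and 0 rose. At 12 h, in a library the test did not use, 2 of the 5 were below the first hour and 3 above it. At 24 h 4 were below it and 1 above it, and at 48 h 4 were below it and 0 above it. Cd22, an inhibitory coreceptor, had 493, 577 and 519 CPM in the first hour and 435, 331 and 222 CPM at 2, 3 and 6 h (log2 fold change -0.69 ± 0.22, adjusted p = 0.0419), Pax5, the factor of B cell identity, had 214, 206 and 179.9 CPM in the first hour and 116, 111 and 168 CPM at 2, 3 and 6 h (log2 fold change -0.61 ± 0.16, adjusted p = 0.0259), and Blk, a Src family kinase, was at -0.32 ± 0.08. The count of 5 lower became 0 without 15 min, 30 min or 3 h, 1 with lane as a term and 2 without 1 h or in the fit of 8 groups over 20 libraries. Pax5 missed the threshold without any of 15 min, 30 min, 2 h and 3 h (adjusted p = 0.0893, 0.0924, 0.0539 and 0.0926), Blk without 15 min, 30 min or 3 h (0.0845, 0.0847 and 0.0774), and Cd22 without 15 min, 30 min, 1 h or 3 h (0.089, 0.136, 0.0905 and 0.117). With lane, Pax5 (0.186) and Blk (0.159) did not pass. Pax5 and Cd22 overlap exons on the other strand and their counts are uncertain.

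**Figure D4:**
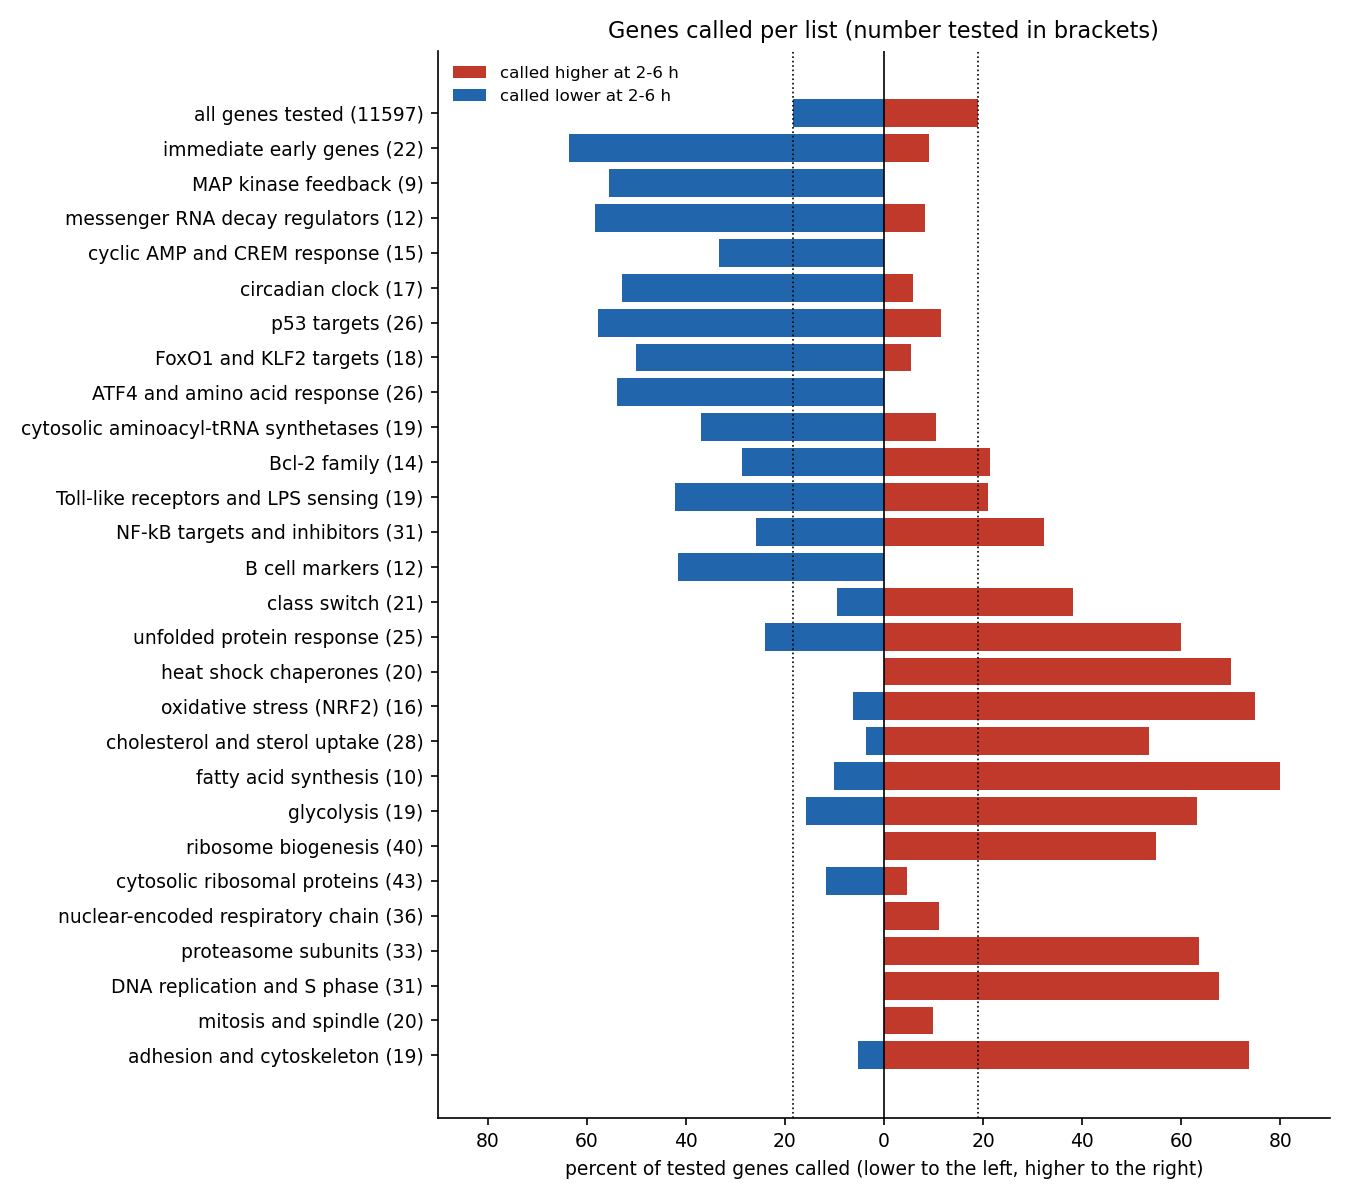
Share of tested members (percent, horizontal axis) called higher or lower at 2-6 h in each gene list (vertical axis), with dotted lines at the shares among all genes tested, 19% higher and 18.3% lower. Immediate early genes lie far out on the lower side, and fatty acid synthesis, the NRF2 list, cytoskeleton and heat shock genes on the higher side.

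The largest single rise among named genes was in Neat1, a long noncoding RNA that builds paraspeckles in the nucleus (chromosome 19, 5824708 to 5845478, minus strand, GRCm38). It had 75.0, 71.3 and 119 CPM in the first hour and 636, 676 and 499 CPM at 2, 3 and 6 h, was higher by 6.82 times (log2 fold change 2.77 ± 0.22, adjusted p = 0.00392) and was at 373 CPM at 48 h. Kcnq1ot1, an antisense noncoding RNA, had 14.4, 13.0 and 16.7 CPM in the first hour and 37.7, 28.8 and 28.2 CPM at 2, 3 and 6 h (log2 fold change 1.09 ± 0.15, adjusted p = 0.00476), and Malat1, of nuclear speckles, had 164, 231 and 234 CPM in the first hour and 394, 308 and 357 CPM at 2, 3 and 6 h (log2 fold change 0.75 ± 0.15, adjusted p = 0.0113). Malat1 missed the threshold with lane (adjusted p = 0.182). Kcnq1ot1 and Malat1 overlap exons on the other strand and their counts are uncertain, and poly-A selection may read such RNAs only in part.

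Other genes of the 15 with the largest rises belong to no list named so far. Map1a, which binds microtubules, had 27.8, 34.5 and 76.4 CPM in the first hour and 224, 257 and 146 CPM at 2, 3 and 6 h (log2 fold change 2.17 ± 0.40, adjusted p = 0.00806) and was at 37.4 CPM at 12 h. Nol4l had 10.3, 11 and 10.7 CPM in the first hour and 66.9, 45 and 12.2 CPM at 2, 3 and 6 h (log2 fold change 1.95 ± 0.52, adjusted p = 0.025), a peak at 2 h that was nearly gone by 6 h. Gja1, the gap junction protein connexin 43, had 3.59, 3.14 and 4.18 CPM in the first hour and 8.60, 14.1 and 20.2 CPM at 2, 3 and 6 h (log2 fold change 1.97 ± 0.31, adjusted p = 0.00576), and Ankle1, an endonuclease, had 6.01, 4.95 and 6.42 CPM in the first hour and 12.7, 21.6 and 39.1 CPM at 2, 3 and 6 h (log2 fold change 2.07 ± 0.38, adjusted p = 0.00827). Efnb1, the ligand ephrin B1, and Ppp1r3b, which targets a phosphatase to glycogen, had log2 fold changes of 1.68 ± 0.18 and 1.66 ± 0.17. Nol4l missed the threshold without 15 min (adjusted p = 0.0858), 30 min (0.0914), 1 h (0.0758) or 3 h (0.0774) and with lane (0.249), and Map1a with lane (0.0753). Map1a overlaps exons on the other strand and its counts are uncertain.

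Other large falls were in Vegfa, the vascular growth factor, with 81.6, 96.6 and 71.1 CPM in the first hour and 28.4, 23.5 and 12.3 CPM at 2, 3 and 6 h (log2 fold change -1.96 ± 0.29, adjusted p = 0.00532), and Hilpda, which coats lipid droplets and responds to hypoxia, with 26.4, 30.0 and 21.5 CPM in the first hour and 5.81, 6.4 and 7.43 CPM at 2, 3 and 6 h (log2 fold change -2.0 ± 0.16, adjusted p = 0.00392). Hilpda was already at its low level at 2 h, whereas Vegfa was lower at each later time and at 51.9 CPM at 48 h. Etv1, an ETS factor, Cers3, a ceramide synthase, Adamts20, a secreted protease, and Fut1, a fucosyltransferase, had log2 fold changes of -2.10, -2.06, -2.30 and -2.33. Socs3, a feedback inhibitor of STAT3 signalling, had 6.74, 8.53 and 6.35 CPM in the first hour and 3.00, 1.25 and 0.595 CPM at 2, 3 and 6 h (log2 fold change -2.14 ± 0.49, adjusted p = 0.0162). Pim2, a survival kinase, had 295, 291 and 265 CPM in the first hour and 183, 142 and 129.5 CPM at 2, 3 and 6 h (log2 fold change -0.91 ± 0.13, adjusted p = 0.00493), and Stk17b, a death-associated kinase among the most abundant genes that fell at least 2-fold, had 429, 448 and 373 CPM in the first hour and 167, 160.1 and 148 CPM at 2, 3 and 6 h (log2 fold change -1.40 ± 0.09, adjusted p = 0.00226). Fut1 missed the threshold without 15 min (adjusted p = 0.0551), 30 min (0.0755) or 3 h (0.0773), and Socs3 without the same libraries (0.0515, 0.0671 and 0.0674).

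Genes that fell had longer models than genes that rose. The median exonic length was 4107 bases for genes called higher, 5320 for genes called lower and 4390 for all genes tested, and the median span in the genome was 17597, 35187 and 22659 bases. Gene models (GENCODE vM21, GRCm38) matched 96.7%, 95.9% and 95.6% of these sets. This is a description with no test, and its part in the calls was not tested.

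The same contrast was then taken in the stimulated arm, whose 6 libraries are separate from those above and come from another mouse. There 4243 of 11446 genes (37.1%) were called, 2198 higher and 2045 lower, and 3014 genes were called the same way in both arms and 8 the opposite way. Of the 211 genes at least 2-fold higher in the untreated arm, 173 were tested in the stimulated arm, where 171 changed the same way and 140 of them were called. Of the 424 lower genes, 404 were tested, 402 changed the same way and 314 were called. As log2 fold changes, Hsph1 had 2.10 untreated and 2.36 stimulated, Trib3 -2.20 and -2.53, Hsd17b7 1.10 and 1.63, and Fosb -4.69 and -5.56. Some named genes did not share the change: Jun had 2.12 and -1.05, Fas -1.06 and 0.11, and Tnfaip3 1.08 and 0.10. These were not called in the stimulated arm, and their difference between arms, tested below, did not pass either.

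The difference of the 2 changes was tested directly, untreated minus stimulated, and 31 of 11843 genes passed (0.262%), 13 with a more positive change in the untreated arm and 18 with a more negative one. At an unadjusted p under 0.05 there were 948. Arm, animal and in part lane cannot be told apart here, and with lane as a term 0 passed by edgeR and 275 had an unadjusted p under 0.05. With time as a block that pairs the untreated and the stimulated library of each time, a fit chosen after the data were seen, 1582 passed, 674 more positive and 908 more negative, all 31 among them. Cflar, which encodes c-FLIP, an inhibitor of caspase 8, fell without the cocktail, with 40.7, 39.6 and 34.8 CPM in the first hour and 27.7, 19.5 and 26 CPM at 2, 3 and 6 h (log2 fold change -0.66 ± 0.14, adjusted p = 0.0135), and rose with it, with 50.9, 45.8 and 49.0 CPM in the first hour and 95.5, 81.6 and 96.4 CPM at 2, 3 and 6 h. The difference was -1.56 ± 0.18 (adjusted p = 0.00611). Tmed8 and Stab1 also fell without and rose with the cocktail, with differences of -1.15 ± 0.13 and -1.16 ± 0.16, as did the G1 kinase Cdk6 at -0.64 ± 0.08. Coro2a, a coronin, rose in both arms and less without the cocktail, with 43.9, 41.8 and 45.5 CPM in the first hour and 67.2, 74.4 and 70.4 CPM at 2, 3 and 6 h against 42.6, 43.9 and 46.3 CPM in the first hour and 142, 169 and 138 CPM at 2, 3 and 6 h (-1.06 ± 0.12). Dock10, an exchange factor of Cdc42, fell without it and did not pass with it (-0.76 ± 0.11).

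Btg2, Zfp36 and Klf6 fell in both arms and by less without the cocktail. Btg2, an antiproliferative cofactor of deadenylation, had 124, 113 and 71.9 CPM in the first hour and 41.5, 47.4 and 55.0 CPM at 2, 3 and 6 h against 164, 204 and 162 CPM in the first hour and 17.8, 18.1 and 20.8 CPM at 2, 3 and 6 h, a difference of 2.12 ± 0.27 (adjusted p = 0.00924). Its stimulated libraries started higher in the first hour and ended lower. Klf6, a zinc finger factor, had a difference of 1.2 ± 0.18, Zfp36 of 2.22 ± 0.38, and Fam43a of 0.59 ± 0.09. Rpl34-ps1, a pseudogene that shares reads with the ribosomal protein gene it copies and is therefore uncertain, had a difference of 1.29 ± 0.17. The count of 31 became 9 without stimulated 30 min, 10 without untreated 1 h, 11 without untreated 3 h, 16 without stimulated 15 min or untreated 30 min, 17 without stimulated 3 h or untreated 15 min, 20 without untreated 2 h, 50 without stimulated 6 h and 84 without stimulated 2 h, and DESeq2 gave 210. In the untreated arm alone the falls of Cflar, Tmed8, Cdk6 and Btg2 missed the threshold with lane (adjusted p = 0.0686, 0.0634, 0.205 and 0.074). In that arm, without 30 min, Cflar (0.0621), Tmed8 (0.0615), Cdk6 (0.091) and Stab1 (0.0648) did not pass. Without 15 min Cflar (0.0575), Tmed8 (0.0537) and Cdk6 (0.117) did not, without 3 h Cdk6 (0.107) and Stab1 (0.0548) did not, and without 1 h Cdk6 (0.0521) did not. The difference itself missed the threshold with lane for all 11 of these genes. Without stimulated 30 min it missed it for Dock10 (adjusted p = 0.0613), Fam43a (0.125), Klf6 (0.0977), Rpl34-ps1 (0.0509), Stab1 (0.0582) and Zfp36 (0.127). These 6 also missed it without others of the 12 libraries, with adjusted p from 0.0509 to 0.159: Rpl34-ps1 without untreated 1 h, Stab1 without untreated 1 h or 3 h or stimulated 15 min, Dock10 without untreated 30 min, 1 h or 3 h or stimulated 15 min or 3 h, Klf6 without any untreated library but 6 h or without stimulated 3 h, Fam43a without any untreated library but 30 min or any stimulated library at 15 min, 1 h or 3 h, and Zfp36 without any untreated library but 15 min or any stimulated library at 15 min, 3 h or 6 h. Coro2a, Cdk6, Stab1 and Zfp36 overlap exons on the other strand and their counts are uncertain.

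**Figure D5:**
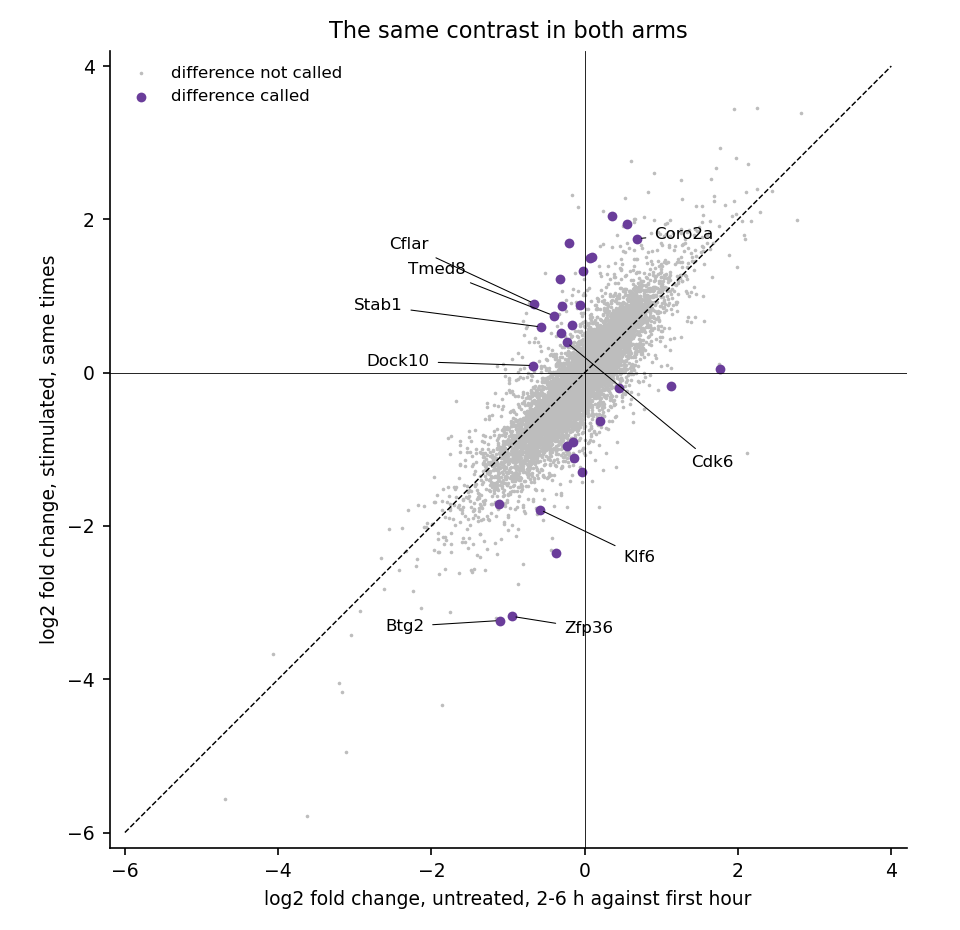
Log2 fold change at 2-6 h over the first hour in the stimulated arm (vertical axis) against the untreated arm (horizontal axis) for each gene, with the 31 genes whose difference passed in purple and the line of equal change dashed. Most genes lie near the line, Cflar above it and Btg2 and Zfp36 below it.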

How the data were processed

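Raw counts per gene were deposited for each library. Per the submitters' processing notes the reads were aligned with STAR to GRCm38.p3 (mm10) and counted with HTSeq. The sources used here do not give versions or strand setting. The 6 untreated libraries were fitted with edgeR 4.0.16 (R 4.3.3, limma 3.58.1): TMM scaling, genes at 1 CPM or more in 3 or more libraries, quasi-likelihood F test of 2, 3 and 6 h against 15 min, 30 min and 1 h, Benjamini-Hochberg threshold 0.05 over all genes. The SE is the size of the log2 fold change divided by the root of F. The stimulated arm was fitted alike, and the difference of the changes in 1 model of 12 libraries. Printed CPM are scaled by TMM over all 20 libraries. With 3 libraries a side an exact permutation test cannot go below 0.1.

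Members and gene lists were chosen with earlier results of these data known. Genes were named by rule: the 15 largest rises and 15 largest falls (mean of at least 5 CPM, no overlap), the 10 most abundant with at least a 2-fold change, up to 6 a list by smallest p, and the 8 with the smallest p for the difference between arms. Some genes that the rule names are not reported here, though list counts include them. Alternatives were other scalings and filters, DESeq2 1.42.0, voom, lane as a term, lane 3 alone, other time windows, each library left out and, added after seeing the data, time as a block between arms. On simulated data the test of 2-6 h recovered 41% of genes changed 1.5-fold and 80% of those changed 2-fold, with 11 false of 132 calls. The simulated libraries were independent, with few genes changed and no lane effect or time trend within a side. These rates therefore need not hold for the real libraries. Promoter and gene tables are RefSeq GRCm38.p6 and GENCODE vM21.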

Additional observations from a re-analysis of the deposited data

Results flagged for a closer look

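The test of the difference between arms (change in untreated minus change in stimulated cells, log2 scale, edgeR quasi-likelihood test, Benjamini-Hochberg threshold 0.05) passed for 11 genes that were also called in the untreated arm. A more negative change without the cocktail was found for Cflar (-1.56), Stab1 (-1.16), Tmed8 (-1.15), Coro2a (-1.06), Dock10 (-0.76) and Cdk6 (-0.64). A more positive change was found for Zfp36 (2.22), Btg2 (2.12), Rpl34-ps1 (1.29), Klf6 (1.2) and Fam43a (0.59). Each arm is 1 mouse, so the cocktail and the animal cannot be told apart.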

How the results depend on the processing

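No paired analysis was possible because no replicate number is in the labels and, within the untreated arm, each time has 1 library and stands on 1 side. Between arms the times match by label only, the mice being different, and time as a replicate block, added after the data were seen, moved the count of the difference from 31 to 1582. The count of 4327 genes ran from 3089 to 5644 under other scalings, filters, tools and time windows, and was 1382 with lane as a term, 635 with a 2-fold minimum and 0 within lane 3, where fewer libraries enter (2580 at an unadjusted p under 0.05). Leaving out 1 library gave 1325 (without 30 min) to 5624 (without 6 h). The count of 31 for the difference between arms ran from 28 to 43 under other scalings, filters and voom, was 210 with DESeq2 and 0 with lane as a term (275 at an unadjusted p under 0.05), and was 9 to 84 with 1 library left out. Top2a, not called at a log2 fold change of 0.33, ran from -0.0052 (without 6 h) to 0.50 (without 2 h) with 1 library left out. The cause of these moves was not tested. Over the 141 named genes and all alternatives, 2502 of 2802 values kept direction and call, 299 kept direction and missed the threshold, and 1 (Top2a) changed sign. The floor of 3 counts, at most 0.0737 CPM, lies below the lowest values of Fosb (0.185 CPM) and Fgf21 (0.164 CPM).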

Other observations

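Among 18 tested hypoxia genes 7 fell and 3 rose, beside 18.3% and 19% of all genes. Only the share that fell was above that of all genes. The largest fall of the list was that of Vegfa, described above, at -1.96. Ndrg1, a stress-responsive gene of differentiation, had 5.80, 5.89 and 4.46 CPM in the first hour and 3.01, 1.92 and 2.32 CPM at 2, 3 and 6 h (log2 fold change -1.15 ± 0.21, adjusted p = 0.00842), while Higd1a, a mitochondrial protein, had 18.4, 16.7 and 20.4 CPM in the first hour and 24.4, 27.7 and 29.8 CPM at 2, 3 and 6 h (log2 fold change 0.56 ± 0.12, adjusted p = 0.012). The count of 3 higher became 0 without 15 min or 30 min and 1 without 1 h, 3 h, with lane as a term or with library totals only. The count of 7 lower became 1 in the fit of 8 groups over 20 libraries, 3 without 15 min, 30 min, 1 h or 3 h and 4 with lane as a term. Of 14 genes of the MYC network 4 rose and 2 fell, near the 19% and 18.3% of all genes for so short a list. The list median was 0.10, and the count is no result about the list. Cad, which starts pyrimidine synthesis, had 181, 157 and 178 CPM in the first hour and 249, 319.8 and 401 CPM at 2, 3 and 6 h (log2 fold change 0.91 ± 0.16, adjusted p = 0.00797), higher at each later time than at any early one. The count of 4 higher became 1 without 15 min, 30 min, 1 h or 3 h and 2 with lane as a term. Of 36 nuclear-encoded genes of the respiratory chain 4 rose and 0 fell, both below the shares of all genes. The count of 4 higher became 0 with lane as a term, 1 without 15 min, 30 min, 1 h, 3 h, with library totals only or in the fit of 8 groups over 20 libraries and 7 without 2 h. Higd1a missed the threshold without 15 min (adjusted p = 0.0535) or 30 min (0.0623), and Ndrg1 and Higd1a overlap exons on the other strand, so their counts are uncertain.

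B cell receptor signalling genes were mixed, with 4 of 25 higher and 5 lower, near the 19% and 18.3% of all genes. Malt1, the paracaspase that links the receptor to NF-kB, had 442, 439 and 391.5 CPM in the first hour and 289, 243 and 300.2 CPM at 2, 3 and 6 h (log2 fold change -0.62 ± 0.10, adjusted p = 0.00596), and Plcg2, the phospholipase below the receptor, had 274, 248 and 280.1 CPM in the first hour and 334, 363 and 395 CPM at 2, 3 and 6 h (log2 fold change 0.44 ± 0.08, adjusted p = 0.00928). The count of 4 higher became 0 without 30 min, 1 without 15 min or with lane as a term and 2 without 1 h, 3 h, with library totals only or in the fit of 8 groups over 20 libraries. The count of 5 lower became 2 without 15 min, 30 min, 1 h, 3 h, with lane as a term or in the fit of 8 groups over 20 libraries. Malt1 missed the threshold with lane as a term (adjusted p = 0.0527) and Plcg2 without 30 min (0.0532). Snhg1, a host gene of small nucleolar RNAs, fell with 153, 165 and 139.6 CPM in the first hour and 107, 87.1 and 82.6 CPM at 2, 3 and 6 h (log2 fold change -0.73 ± 0.12, adjusted p = 0.00597), while Neat1 of the same list of long nuclear RNAs rose.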
